A study of Mus musculus with 10 samples.

Results

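The kinesins described here are 10 motor proteins of the mitotic spindle, *Kif2c*, *Kif4*, *Kif11*, *Kif14*, *Kif15*, *Kif18a*, *Kif18b*, *Kif20a*, *Kif22* and *Kifc1*, taken by symbol from the 45232 gene entries of the deposited table. *Kif5b*, the heavy chain of a constitutive transport kinesin, served as a reference. RNA came from mouse NIH3T3 fibroblasts whose *Lin37* carries InDels made with a Cas9 nickase at exon 4 in one clone and at exon 6 in another, so each *Lin37* mutation is represented by a single clone. Both groups of each clone carried an inducible episome, a plasmid kept outside the chromosomes, that expressed luciferase in the knockout cells (KO) or wild-type Lin37 in the rescue cells, and all cells were held without serum for 60 h before RNA extraction. Each clone gave 2 biological replicates per group, the second of the exon 6 clone sequenced as a pair of technical replicates, which gives 10 libraries and, with the technical replicates averaged, 4 KO and 4 rescue replicates.

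Kinesins use ATP to move along microtubules or to take subunits off their ends. The mitotic members build the spindle, move and align chromosomes, set microtubule length and organize the midzone between the separating chromosomes, and their mRNAs are known to peak in G2 and mitosis and to be low in resting cells. Lin37 is a subunit of MuvB, the core of the DREAM complex that represses cell cycle genes in quiescence, and DREAM reaches many G2/M promoters through a short element called the CHR, often with CCAAT boxes bound by NF-Y nearby, and many G1/S promoters through E2F sites. The comparison of KO with rescue cells therefore asks what becomes of these motor mRNAs in starved cells when Lin37 is missing.

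*Lin37* itself was measured first. Its level, in RPKM (reads normalized for gene length and for the library) divided by a factor per library, was 0.285 and 0.284 in the exon 4 KO replicates and 0.417 and 0.274 in those of exon 6, against 2.54 and 2.12 in the exon 4 rescue replicates and 4.92 and 4.76 in those of exon 6. Every KO replicate was below every rescue replicate, as the labels state, and the rescue level was higher in the exon 6 clone. *Lin37* was lower in KO cells by a log2 change of -2.25 (limma adjusted p 0.000293). Reads from the episome can count toward the rescue values, and InDels can leave a transcript in place.

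The libraries differed in composition. The factors by which they were divided ranged from 0.324 to 2.70, and entries listed at 0 numbered from 7920 to 22034. The entries Gm10800, Gm10801 and CT010467.1, singled out after their values were seen, together took 18.9% to 55.0% of the RPKM sum in the KO libraries and 43.9% to 66.1% in the rescue libraries. This share was on the whole lower in KO libraries, and its part in the differences between the groups was not tested. The levels relative to *Kif5b* in the same library, given below, do not depend on the scaling factors. Whole reads could not be recovered from the values, so the depth of each library is unknown and no counting error is given.

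The cells had the markers of fibroblasts in every replicate. The summed level of the 10 fibroblast markers lay between 432 and 794 RPKM, with *Fn1* the most abundant at a mean of 195 RPKM. Of the 5 myoblast, 5 epithelial and 4 endothelial markers, at most 1 per list had a mean of 0.1 RPKM or more, and the sums per replicate lay between 0.107 and 0.387, 0.0322 and 0.537, and 0.0497 and 0.399 RPKM. The 5 macrophage markers summed to between 0.917 and 1.63 RPKM, most of it from *Cd68* with a mean of 0.915 RPKM, while *Ptprc*, *Adgre1* and *Csf1r* were under the 0.1 RPKM minimum.

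Promoter sequences are shown first, before the changes described below. Whether the matches go with the changes was not tested. RefSeq promoter windows, reaching from 250 bases before the gene start through the first 50 bases of the gene on GRCm38.p6, were at hand for 9 of the 10 kinesins, all except *Kif20a*. Those of *Kif11* (chr19:37376132-37376431, plus strand), *Kif18b* (chr11:102925075-102925374, minus strand), *Kifc1* (chr17:33890584-33890883, minus strand) and *Kif18a* (chr2:109280488-109280787, plus strand) are printed. *Kif18b* had the largest and *Kif18a* the smallest log2 change of the 10, and *Kif11* and *Kifc1* lay between. These genes were chosen after their values were seen, and the sequences are from RefSeq. Capitals mark matches to the CHR (the letters TTTGAA or, as variants, either TTCGAA or else TTTAAA), to the E2F letters TTSSCGC, where S is C or G, and CCAAT, on either strand.
Kif11: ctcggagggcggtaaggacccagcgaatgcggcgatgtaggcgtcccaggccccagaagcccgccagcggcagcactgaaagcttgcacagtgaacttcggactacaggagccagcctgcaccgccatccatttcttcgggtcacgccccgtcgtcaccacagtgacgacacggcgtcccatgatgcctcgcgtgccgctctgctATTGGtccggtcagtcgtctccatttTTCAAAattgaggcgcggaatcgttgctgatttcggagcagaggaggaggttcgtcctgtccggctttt
Kif18b: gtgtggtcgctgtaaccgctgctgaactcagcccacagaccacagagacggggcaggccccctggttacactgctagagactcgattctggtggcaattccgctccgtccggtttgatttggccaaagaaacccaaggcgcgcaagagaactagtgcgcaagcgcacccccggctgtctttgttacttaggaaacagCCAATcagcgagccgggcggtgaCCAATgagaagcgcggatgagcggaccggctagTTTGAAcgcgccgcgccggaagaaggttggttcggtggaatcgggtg
Kifc1: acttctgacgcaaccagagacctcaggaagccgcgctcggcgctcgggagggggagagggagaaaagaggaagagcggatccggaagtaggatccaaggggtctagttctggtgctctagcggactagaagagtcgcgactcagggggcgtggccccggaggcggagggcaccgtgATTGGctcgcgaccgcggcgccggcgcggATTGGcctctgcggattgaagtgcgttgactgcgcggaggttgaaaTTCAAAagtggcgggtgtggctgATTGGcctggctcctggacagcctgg
Kif18a: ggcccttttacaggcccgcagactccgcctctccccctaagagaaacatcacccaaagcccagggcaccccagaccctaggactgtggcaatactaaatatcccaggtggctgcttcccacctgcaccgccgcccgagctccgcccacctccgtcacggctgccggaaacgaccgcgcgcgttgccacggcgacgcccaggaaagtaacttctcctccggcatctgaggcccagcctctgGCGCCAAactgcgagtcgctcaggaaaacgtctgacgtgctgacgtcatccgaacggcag

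A CHR match lay in 8 of the 9 windows, against 28.8% of 32851 promoter windows of that length. CCAAT lay in 6 of the 9, against 37.4%, and an E2F match in 2 of the 9, against 9.57%. TTTGAA accounted for the CHR match in all 8, while TTTAAA was also present in the windows of *Kif14* and *Kif2c*, and no window held TTCGAA. The CHR match of *Kif11* began at base -19 from the gene start with a CCAAT at -45, and that of *Kif18b* began at base 4 of the gene with CCAAT matches at -53 and -30. In *Kifc1*, the CHR match began at base 2 of the gene and CCAAT matches began at -74, -45 and 25. The window of *Kif18a* held no CHR and no CCAAT match, and its only match was an E2F one at base -10. In the windows not printed, the TTTGAA nearest the gene start began at -17 in *Kif22*, -19 in *Kif15*, 20 in *Kif4*, -103 in *Kif2c* and -228 in *Kif14*. *Kif15* and *Kif2c* held no CCAAT match. No matches overlapped within a window. For *Kif2c*, *Kif14* and *Kif4*, the RefSeq start lay 3867, 1505 and 328 bases downstream of the start in the GENCODE M21 annotation. Their windows, all among the 8 with a CHR match, lie wholly inside the gene as annotated there. These windows need not cover the promoter in use here. A match is a run of letters, and binding was not measured in these data.

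**Figure D1:**
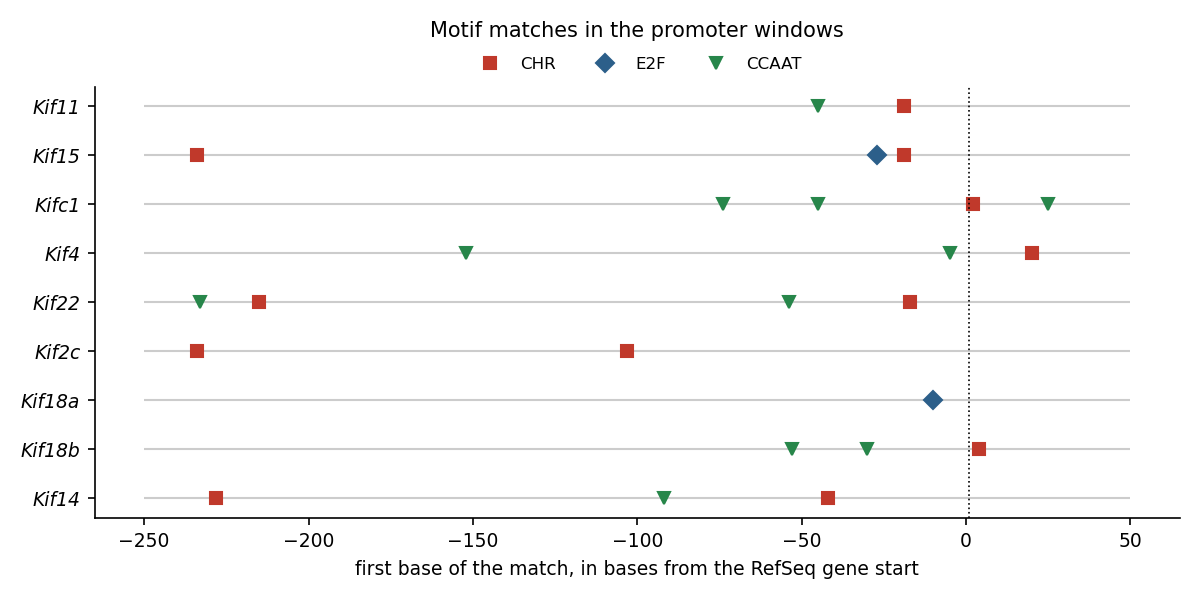
Positions of the matches in the promoter windows of 9 mitotic kinesins, in bases from the RefSeq gene start (dotted line). Squares are CHR, diamonds E2F and triangles CCAAT letters on either strand. 8 of the 9 windows hold a CHR match, and *Kif18a* holds a single E2F match. The windows of *Kif2c*, *Kif14* and *Kif4* lie inside the gene as annotated in GENCODE M21.

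All 10 kinesins had higher levels in KO than in rescue cells in each of the 4 pairs of replicates of the same clone and number, as did 8.96% of all genes tested, and 9 of the 10 were called as higher over both clones. The one not called was *Kif18a*. Here and below, a gene is called where limma gave a Benjamini-Hochberg adjusted p under 0.05 over all 16866 genes whose mean reached 0.1 RPKM, on the log2 of the scaled RPKM plus 0.5. The 0.5 exceeds the rescue mean of each of the 10 kinesins. It makes log2 changes smaller than those of the levels themselves, most so at low levels. The background share of genes called as higher was 1.61%. The median log2 change of the 10 kinesins was 1.39, and that of all genes -0.034. In bulk RNA, fewer cells of a type and less RNA per cell cannot be told apart, so a larger share of cells in the cell cycle and a higher level in each starved cell would look the same here.

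The motors that build the bipolar spindle include *Kif11*, the plus-end motor that slides antiparallel microtubules apart, *Kif15*, which can take over from it, and *Kifc1*, a minus-end motor that pulls the other way and focuses the poles. *Kif11* was at 0.744 and 1.30 RPKM in exon 4 KO and 1.30 and 1.26 RPKM in exon 6 KO, against 0.0568 and 0.0876 RPKM in exon 4 rescue and 0.0448 and 0.0993 RPKM in exon 6 rescue. The first exon 4 KO replicate was the lowest of the KO replicates, and the groups did not overlap. The mean was 1.15 ± 0.272 in KO and 0.0721 ± 0.0256 RPKM in rescue cells (SD, n = 4 each), a 16.0-fold difference. Its log2 change was 1.51 (standard error, SE, 0.13, limma adjusted p 0.000669).

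*Kif15* had KO values of 0.550 and 0.548 RPKM for exon 4 and 0.539 and 0.534 RPKM for exon 6, where the last is the average of technical replicates at 0.410 and 0.657 RPKM. Relative to *Kif5b* the KO values ran from 15.6% to 22.1%. Its rescue values were 0.0990 and 0.109 RPKM for exon 4 and 0.00873 and 0.0438 RPKM for exon 6, all below the KO values. Its log2 change was 0.89 (SE 0.095, limma adjusted p 0.00167). *Kifc1* was at 1.38 and 1.25 RPKM in exon 4 KO and 1.42 and 1.69 RPKM in exon 6 KO, against 0.157 and 0.0528 RPKM in exon 4 rescue and 0.212 and 0.240 RPKM in exon 6 rescue. All rescue values were well below all KO values. The log2 change was 1.54 (SE 0.099, limma adjusted p 0.00016), but the level of *Kifc1* is uncertain, because 53.2% of its stretches of 31 bases also occur in transcripts of *Kifc5b*. That related gene was at 1.79 ± 0.544 in KO and 0.231 ± 0.124 RPKM in rescue cells (SD, n = 4 each), and rose as well, with a log2 change of 1.62 (adjusted p = 0.00213 from limma).

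**Figure D2:**
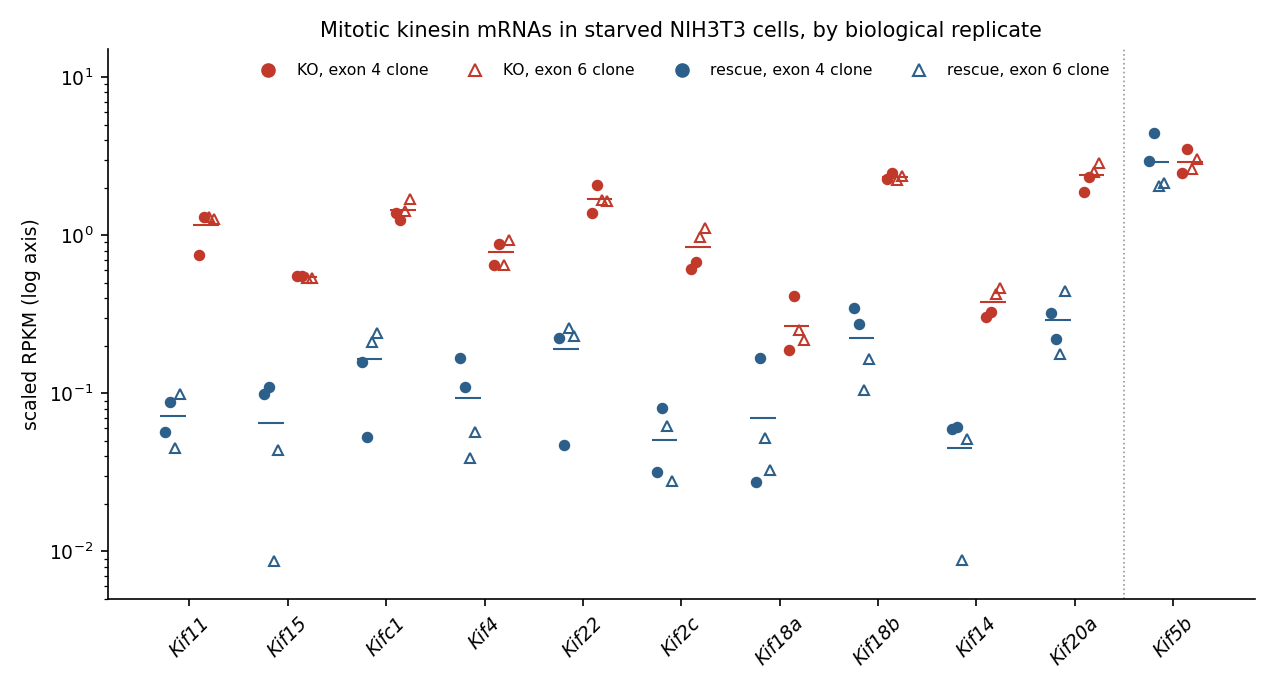
Scaled RPKM of each kinesin in 8 biological replicates, on a log axis, grouped by role from left to right and with *Kif5b* at the end. Red marks are KO and blue marks rescue, circles the exon 4 clone and triangles the exon 6 clone, and lines the mean of 4. For the 10 mitotic kinesins the KO values lie above the rescue values with no overlap, while those of *Kif5b* overlap.

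*Kif4* and *Kif22* are chromokinesins, which bind chromosome arms and push them away from the poles, and *Kif4* also shapes the midzone. *Kif22* was at 1.39 and 2.08 RPKM in exon 4 KO and 1.66 and 1.64 RPKM in exon 6 KO, against 0.222 and 0.0473 RPKM in exon 4 rescue and 0.257 and 0.231 RPKM in exon 6 rescue. The second exon 4 rescue replicate was low and the other rescue replicates were near one another. *Kif22* rose with a log2 change of 1.67 (SE 0.14, limma adjusted p 0.000465). *Kif4* was at 0.779 ± 0.153 in KO and 0.0929 ± 0.0573 RPKM in rescue cells (SD, n = 4 each) and rose by a log2 change of 1.11 (SE 0.12, limma adjusted p 0.00185). Its exons overlap *Pdzd11* on the other strand, which holds 14.55% of its stretches of 31 bases, and whether the counting used strand is not given in the sources used here. *Pdzd11* was at 3.78 ± 0.629 in KO and 3.53 ± 0.728 RPKM in rescue cells (SD, n = 4 each) and was not called (log2 change 0.093, adjusted p = 0.82 from limma).

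*Kif2c* is a depolymerase that removes tubulin from microtubule ends and helps correct wrong attachments at the kinetochore, and *Kif18a* and *Kif18b* act at plus ends, where *Kif18a* dampens chromosome movements and *Kif18b* shortens astral microtubules together with *Kif2c*. *Kif18b* was at 2.25 and 2.46 RPKM in exon 4 KO and 2.23 and 2.38 RPKM in exon 6 KO, against 0.344 and 0.276 RPKM in exon 4 rescue and 0.105 and 0.164 RPKM in exon 6 rescue. The rescue values were lower in the exon 6 clone, and the groups were far apart. Its log2 change of 1.98 was the largest of the 10 on this scale (SE 0.10, limma adjusted p 6.97e-05). *Kif2c* was at 0.609 and 0.680 RPKM in exon 4 KO and 0.973 and 1.11 RPKM in exon 6 KO, against 0.0319 and 0.0809 RPKM in exon 4 rescue and 0.0617 and 0.0279 RPKM in exon 6 rescue. It rose with a log2 change of 1.27 (SE 0.12, limma adjusted p 0.000951), and its KO values were higher in the exon 6 clone.

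*Kif18a* was the only one of the 10 not called. It was at 0.188 and 0.411 RPKM in exon 4 KO and 0.250 and 0.218 RPKM in exon 6 KO, against 0.0273 and 0.167 RPKM in exon 4 rescue and 0.0520 and 0.0327 RPKM in exon 6 rescue. The groups did not overlap, but the highest rescue value lay close to the lowest KO value. These are exon 4 replicates of different number. Between replicates of the same number, log2 changes with 0.5 added were 0.38 and 0.45 for exon 4 and 0.44 and 0.43 for exon 6. All these levels lie below the 0.5 added, which draws such changes together. Without it, the ratio of KO to rescue means was 3.09 in the exon 4 and 5.53 in the exon 6 clone. The mean was 3.83-fold higher in KO cells, with a log2 change of 0.43 (standard error 0.13) that was not called (adjusted p = 0.274 from limma, 0.102 with the replicate block). With the RPKM as deposited, when the median change of all genes was 0.64, its log2 change was 0.72 and its adjusted p was 0.0101 from limma, over a range of 0.0101 to 0.759 across its alternatives. With 0.1 in place of 0.5 added it was not called either (adjusted p = 0.232 from limma).

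*Kif14* and *Kif20a* work at the midzone and in cytokinesis, where *Kif14* brings citron kinase to the midbody and *Kif20a* carries the chromosomal passenger complex from the chromosomes to the midzone. *Kif20a* was at 1.88 and 2.32 RPKM in exon 4 KO and 2.50 and 2.86 RPKM in exon 6 KO, against 0.321 and 0.221 RPKM in exon 4 rescue and 0.178 and 0.445 RPKM in exon 6 rescue. Its rescue values were the highest on average among the 10 kinesins, and its lowest KO value still exceeded its highest rescue value. The log2 change was 1.87 (SE 0.13, limma adjusted p 0.000254). *Kif20a* overlaps *Cdc23* on the other strand, which holds 26.7% of its stretches of 31 bases, and *Cdc23*, at 1.08 ± 0.129 in KO and 0.936 ± 0.102 RPKM in rescue cells (SD, n = 4 each), was not called (log2 change 0.14, adjusted p = 0.736 from limma). *Kif14* was at 0.380 ± 0.0768 in KO and 0.0450 ± 0.0245 RPKM in rescue cells (SD, n = 4 each), with a log2 change of 0.69 (SE 0.11, limma adjusted p 0.0128). Its call was lost without each of the exon 6 replicates in turn and with no minimum level, with adjusted p from 0.06 to 0.0955 in limma.

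Ordered by mean level in KO cells, the kinesins ran from *Kif20a* and *Kif18b* at 2.39 and 2.33 RPKM through *Kif22*, *Kifc1*, *Kif11*, *Kif2c* and *Kif4* to *Kif15*, *Kif14* and *Kif18a* at 0.543, 0.380 and 0.267 RPKM. Between *Kif18b* and *Kif22*, between *Kif4* and *Kif15*, and between *Kif15* and *Kif14*, the replicates did not overlap. Other neighbours in the order overlapped. The separations of *Kif15* depend on averaging its technical replicates, since the one at 0.657 RPKM exceeds the lowest *Kif4* value of 0.647 RPKM and the one at 0.410 RPKM lies below the highest *Kif14* value of 0.466 RPKM. In rescue cells the means lay between 0.0450 RPKM for *Kif14* and 0.291 RPKM for *Kif20a*, and every neighbour overlapped with the next. The mean of KO over that of rescue was 3.83 for *Kif18a* and from 8.21 to 16.6 for the other 9, where *Kif2c* and *Kif11* came first with 16.6 and 16.0. The ratio of *Kif18a* rests on exon 4 rescue replicate 2, without which it was 7.15, close to 7.14 for *Kif22* and 7.07 for *Kifc1* without the same replicate. On the log2 scale with 0.5 added *Kif18b* came first. With 0.1 added, *Kif18b* had 2.98, *Kif11* 2.84, *Kif20a* 2.70, *Kif22* 2.70 and *Kif2c* 2.63, and *Kif18a* remained last with 1.15. The lowest KO replicate exceeded the highest rescue replicate for 10 of 10 kinesins, and for 3.11% of all genes tested.

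Relative to *Kif5b* in the same library, which needs no scaling factor, the groups were also apart for 10 of 10, where the lowest KO replicate exceeded the highest rescue replicate for 2.09% of all genes tested other than *Kif5b*. *Kif18b* was at 81.4% ± 8.67 of *Kif5b* in KO and 8.02% ± 2.93 in rescue cells (SD, n = 4 each), and *Kif20a* at 83.2% ± 14.8 and 12.1% ± 8.30. At the other end, *Kif18a* was at 9.03% ± 2.03 in KO and 2.20% ± 1.22 in rescue cells (SD, n = 4 each). *Kif5b* itself was at 2.91 ± 0.459 in KO and 2.90 ± 1.12 RPKM in rescue cells (SD, n = 4 each), with overlapping groups, and its log2 change of 0.050 (standard error 0.18) was not called (adjusted p = 0.961 from limma). With the RPKM as deposited its log2 change was 0.97, beside the 0.64 of all genes, and it was not called (adjusted p = 0.0977 from limma). In the exon 4 clone it was 0.808-fold and in the exon 6 clone 1.35-fold its rescue mean, with log2 changes of -0.26 and 0.36 that were not called (adjusted p = 0.773 and 1.00 from limma).

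**Figure D3:**
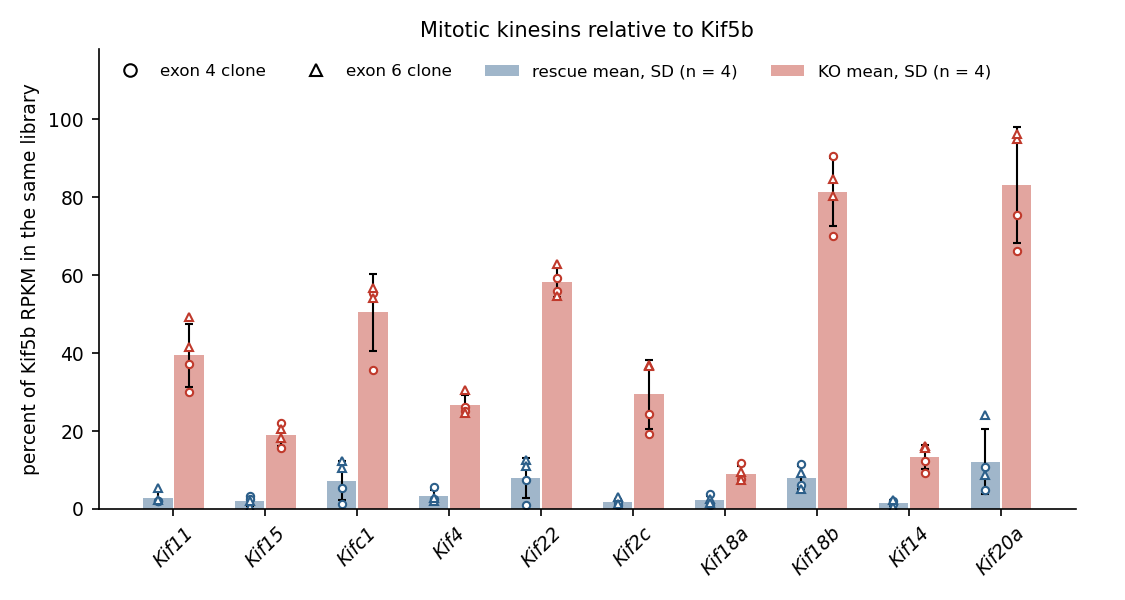
Level of each kinesin as a percentage of the *Kif5b* RPKM in the same library, as bars for the mean and SD of 4 replicates, with each replicate as an open mark. Bars start at 0. *Kif18b* and *Kif20a* stood at 81.4% and 83.2% in KO cells, and no mitotic kinesin overlapped between the groups.

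Each clone was then taken by itself, from one fit of the 4 groups that shares the estimate of the spread. In the exon 4 clone 6 of the 10 kinesins were called as higher, *Kif18b*, *Kif22*, *Kif20a*, *Kifc1*, *Kif11* and *Kif2c*, where 0.599% of all genes were. *Kif2c* was called there with an adjusted p of 0.0292 from limma, and was not with the replicate block, at 0.0556. In the exon 6 clone 9 of the 10 were called, all but *Kif18a*, where 1.03% of all genes were. *Kif14* and *Kif22* passed there with adjusted p of 0.0469 and 0.0157 from limma, and with the replicate block they had 0.0746 and 0.0589. With 2 replicates a group these counts are fragile. With each clone fitted alone, 0 were called in the exon 4 and 8 in the exon 6 clone. With no minimum level the counts were 1 and 2, and with the RPKM as deposited 2 and 9. In the exon 6 clone 0 were called without exon 6 KO replicate 2 or without exon 6 rescue replicate 1, 1 without exon 6 KO replicate 1 and 2 without exon 6 rescue replicate 2. In the exon 4 clone between 1 and 4 were called when any replicate of either clone was left out, the 1 being without exon 4 rescue replicate 2.

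Whether the genotype acted alike in the clones was tested with an interaction term. 0 of the 10 kinesins were called in limma, where 0% of all genes were, and 1 of the 10 and 685 of 16866 genes had an unadjusted p under 0.05. That kinesin was *Kif2c*, with a log2 change of 1.04 in the exon 4 and 1.50 in the exon 6 clone. The interaction leaves wide room, as its standard error for the 10 ran from 0.18 for *Kif18b* to 0.28 for *Kif18a* on the log2 scale. With no 0.5 added, the ratio of KO to rescue means was 5.27 in exon 4 and 20.4 in exon 6 for *Kif15*. It was 5.55 and 16.6 for *Kif4*, and 5.26 and 14.8 for *Kif14*. For *Kif22* and *Kifc1* it was higher in exon 4, at 12.9 and 12.5, than in exon 6, at 6.76 and 6.88. Whether these ratios differ between the clones was not tested. The median log2 change of the kinesins was 1.22 in the exon 4 and 1.50 in the exon 6 clone, against medians of -0.058 and -0.0093 for all genes. Per pair, the median of the 10 was 1.11 and 1.40 for exon 4 and 1.41 and 1.55 for exon 6.

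**Figure D4:**
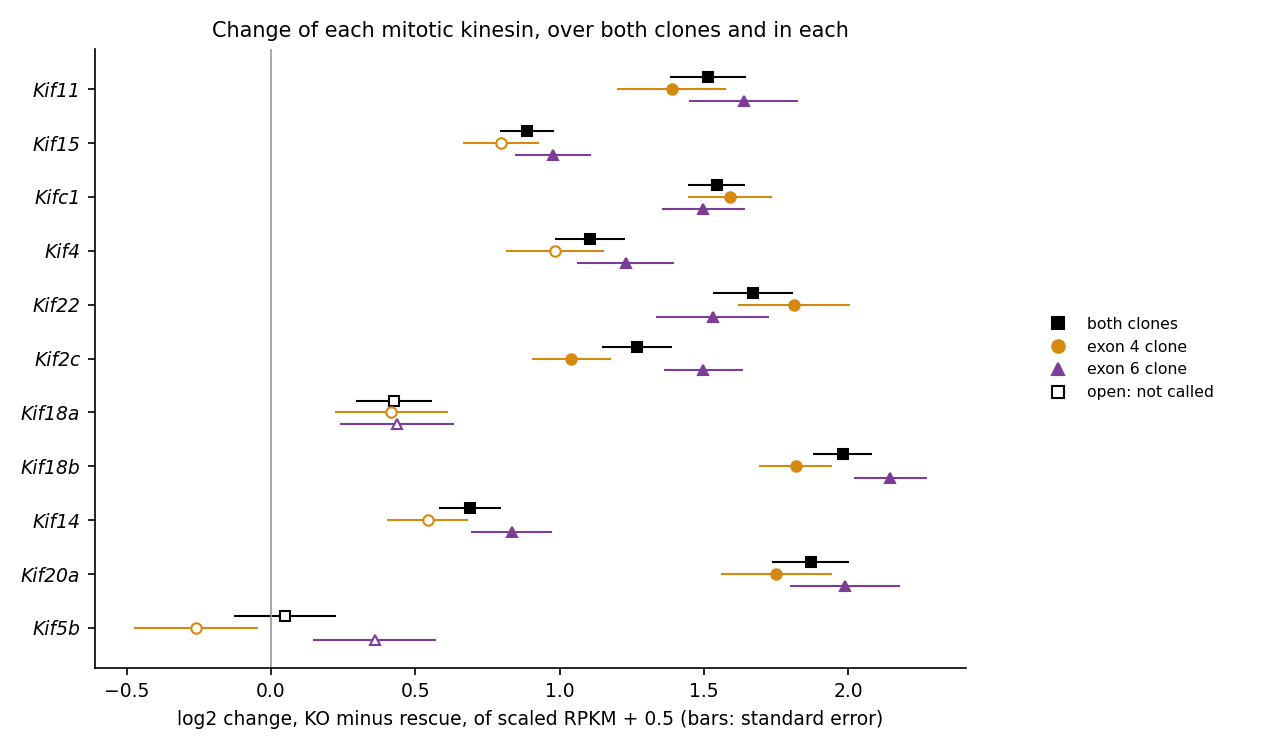
Log2 change of each kinesin and *Kif5b* from KO minus rescue over both clones (squares) and in the exon 4 (circles) and exon 6 clone (triangles), with the standard error as bars. Filled marks were called. The changes of the 10 kinesins over both clones run from 0.43 for *Kif18a* to 1.98 for *Kif18b*.

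Other motor genes were taken from lists. Among 6 further kinesins with mitotic or centrosomal roles, 5 were tested and 3 were called as higher, where 1.61% of all genes were. The median log2 change of the 5 was 1.07. *Kif20b*, which acts in cytokinesis, rose from 0.330 ± 0.0687 to 2.42 ± 0.202 RPKM (SD, n = 4 each), *Cenpe*, the kinetochore motor of chromosome alignment, from 0.196 ± 0.0654 to 1.60 ± 0.160 RPKM, and *Kif23*, the motor of centralspindlin, from 0.0909 ± 0.0582 to 0.750 ± 0.230 RPKM. Their log2 changes were 1.82, 1.60 and 1.07 (adjusted p = 8.53e-05, 0.000206 and 0.00832 from limma). *Kif2a*, a depolymerase of spindle poles and of interphase cells and the most abundant of the list, had a log2 change of 0.011 and was not called (adjusted p = 0.99 from limma). *Kif24*, a centriolar depolymerase, had a log2 change of 0.33 and was not called either (adjusted p = 0.263 from limma). The *Kif24* groups did not overlap, however, and its mean was 2.71-fold higher in KO cells. With the RPKM as deposited, when the median change of all genes was 0.64, 4 of the 5 were called as higher, as were 875 of 16349 genes.

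The transport and ciliary kinesins and their light chains form a list of 29 genes, of which 19 were tested. In limma 0 of the 19 were called and 2 had an unadjusted p under 0.05, where 1.69% and 8.79% of all genes did, so a list of this size need not hold a call. The median log2 change was -0.10. With the RPKM as deposited, this median was 0.61, beside 0.64 for all genes. *Kif1c*, the most abundant, was at 6.78 ± 0.414 in KO and 7.34 ± 0.659 RPKM in rescue cells (SD, n = 4 each). Of 12 genes for dynein, the minus-end motor of interphase and spindle, its activator dynactin and the dynein regulators *Pafah1b1*, *Nde1* and *Ndel1*, 0 were called in limma and 1, *Nde1*, had an unadjusted p under 0.05, again against 1.69% and 8.79% of all genes. Their median was 0.058. *Dynlrb1*, a dynein light chain and the most abundant of them, was at 23.2 ± 6.55 in KO and 21.1 ± 4.28 RPKM in rescue cells (SD, n = 4 each). With libraries scaled to *Kif5b* the median of the 12 was -0.017, and with the RPKM as deposited 0.95.

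The mRNAs of proteins that bind or regulate mitotic kinesins on the spindle moved with those of the kinesins in part. Of 25 tested, 16 were called as higher, where 1.61% of all genes were, and 0 as lower. The median log2 change of the 25 was 1.13. With the replicate block 17 were called as higher, because *Ckap5* was added (adjusted p = 0.0349 from limma with the block, 0.0591 without it). Of the partners not called without the block, *Ccnb1*, *Prc1*, *Nusap1*, *Ckap5* and *Rcc1* had every KO replicate above every rescue replicate. So had 3.11% of all genes tested. Their means were 6.14-, 6.08-, 3.91-, 1.69- and 1.44-fold higher in KO cells. The groups of *Kpnb1*, *Ran*, *Mapre1* and *Numa1* overlapped. *Tacc3*, which links microtubules in the spindle fibres, rose from 0.431 ± 0.166 to 3.04 ± 0.262 RPKM (SD, n = 4 each), *Incenp*, the scaffold of the chromosomal passenger complex, from 1.38 ± 0.241 to 6.39 ± 0.643 RPKM, and *Tpx2*, which activates Aurora A and targets *Kif15* to the spindle, from 0.249 ± 0.117 to 2.17 ± 0.169 RPKM. *Spag5* had a log2 change of 1.52, after 1.94, 1.88 and 1.84 for these (adjusted p between 9.48e-05 and 0.000254 from limma). *Numa1*, which anchors dynein at the poles and is also a nuclear protein of interphase, was the most abundant at 8.76 ± 0.756 in KO and 8.80 ± 0.758 RPKM in rescue cells (SD, n = 4 each) and was not called (log2 change -0.0058, adjusted p = 0.992 from limma).

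**Figure D5:**
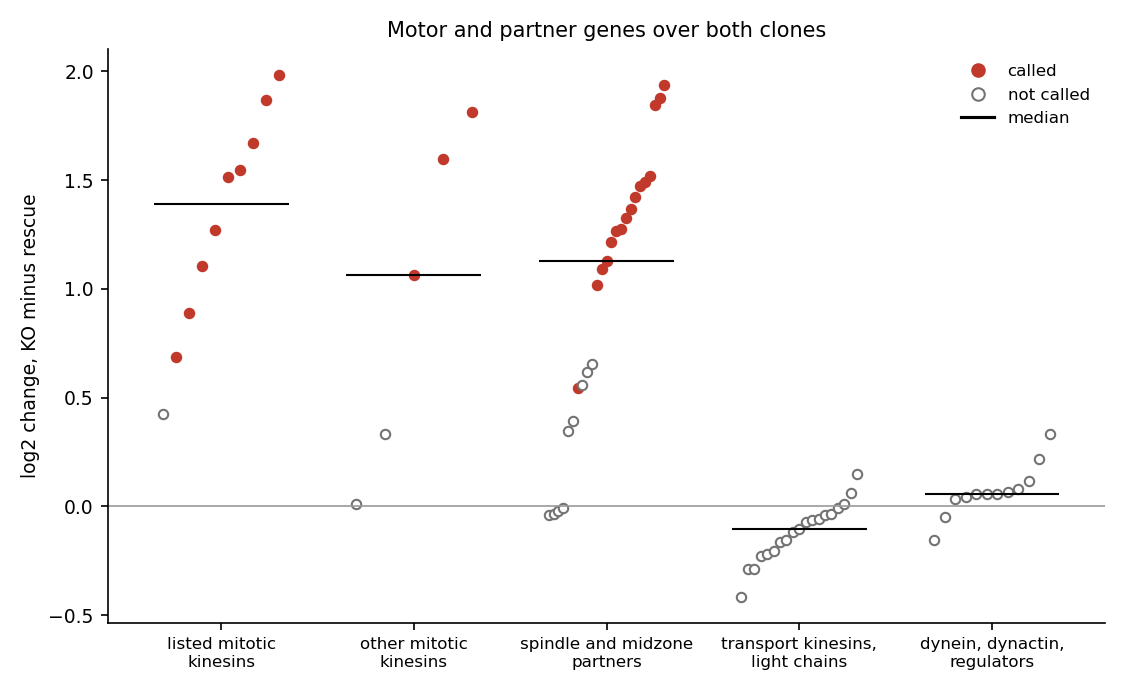
Log2 change over both clones of each tested gene of 5 lists, ordered within a list, with the median as a line. Filled red marks were called. Of all genes tested, 1.69% were called in either direction.

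The genes most like the 10 kinesins were found by the Pearson correlation over 8 replicates with the mean of the kinesins, each centred and scaled. The first was *Iqgap3* (r = 0.997), followed by *Cenpe* (0.997), the processed pseudogene Gm7856 (0.995), *Cdca8* (0.994), *Ect2* (0.994) and *Kif20b* (0.993), then *Ticrr* (0.992), *Mcm10* (0.991), *Tcf19* (0.990) and *Ttk* (0.990). On that mean, all 4 KO replicates were high and all 4 rescue replicates low, so r follows the split between the groups, and it was not computed within a group. All 10 of these genes were called as higher, with log2 changes between 0.85 and 1.82, where 1.61% of all genes were called as higher. Because r follows the split, this count was largely set by how the genes were chosen.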

How the data were processed

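The authors clipped adapters with cutadapt, mapped the reads to mm10 with segemehl, counted them per gene with rnacounter against GENCODE and deposited RPKM for each library. The submitters' processing notes also name Picard 1.89. Which reads the library total holds is not given in the sources used here. Multiples of a step, within a tolerance of 0.05, accounted for 17.5% to 34.0% of the low values, so whole reads were not recovered.

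Gene names and positions came from GENCODE M21, in which 44585 of 45232 identifiers were found. Libraries were scaled by median-of-ratios factors from 8523 genes, above 0 throughout and averaging 1 RPKM or more, and technical replicates were averaged. Genes averaging 0.1 RPKM or more were tested on log2(RPKM + 0.5) with limma 3.58.1 in R 4.3.3 (lmFit, eBayes with trend, clone as covariate), with Benjamini-Hochberg adjustment. A gene was called below 0.05. Clone contrasts and the interaction came from one fit of 4 groups. Python 3.11.15 with pandas 2.3.3, numpy 2.4.6, scipy 1.17.1 and matplotlib 3.10.9 was used. The procedure was tested on simulated data with the same spread for every gene. The genes given a change there were set to mean levels above those of *Kif14* and *Kif18a*.

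KO and rescue replicates share numbers in the labels. After subtracting group means, KO and rescue replicates of the same number correlated at 0.477 (exon 4) and 0.360 (exon 6) over 7550 genes, and each comparison was also fitted with a replicate block.

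The kinesins, lists and alternatives were chosen with earlier results of these data known. Named were the 10 kinesins, *Kif5b*, *Lin37*, the copies Kif22-ps, *Kifc5b* and Kifc5c-ps, the called genes with the largest change and the most abundant gene of each list (other mitotic kinesins, transport kinesins, partners, dynein), every called gene of a list with 5 or fewer, and the 10 genes most like the kinesins. *Pdzd11*, *Cdc23*, *Kif24*, the dynein regulators and the partners not called, other than *Numa1*, were added after their values were seen. 1 of the 26 partner genes was not matched to a name. Alternatives were other pseudocounts (0.1 and 1), minimums, scalings, technical replicates apart, no clone covariate, the block, no trend and each replicate left out. Protein sequences were not analysed here. Labels do not say whether replicates were separate cultures, so p-values measure the spread between these samples.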

Additional observations from a re-analysis of the deposited data

Results flagged for a closer look

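Of 24 groups of 4 replicates (10 kinesins, *Kif5b* and *Lin37*, each in KO and rescue cells), 3 held a replicate far from the others. The gap to the nearest other replicate, as a share of the whole range of the group, exceeded the 5% critical value of Dixon's ratio. Chance alone would pick out about 1 in 20 groups. *Kif11* in exon 4 KO replicate 1 was at 0.744 RPKM, where the other KO replicates were between 1.26 and 1.30 RPKM (ratio 0.926). The 1.26 is the average of technical replicates at 1.45 and 1.07 RPKM. *Kif22* in exon 4 rescue replicate 2 was at 0.0473 RPKM, where the other rescue replicates were between 0.222 and 0.257 RPKM (ratio 0.835). *Lin37* in exon 6 KO replicate 1 was at 0.417 RPKM, where the other KO replicates were between 0.274 and 0.285 RPKM (ratio 0.918). The cause was not tested. *Kif11* and *Kif22* were called over both clones in every alternative in which they were tested.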

How the results depend on the processing

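Over both clones, the count of 9 called kinesins was 8 to 10 in 20 of 21 alternatives. With a minimum of 1 RPKM, under which only *Kif18b* and *Kif20a* were tested, it was 2. None of the 10 changed sign in any alternative. With the replicate block it was 9, and the block changed no other call of a kinesin than those of *Kif2c*, *Kif14* and *Kif22* in single clones. The median log2 change of 1.39 was 2.61 with 0.1 added, 0.90 with 1 added, 1.93 with the minimum of 1 RPKM and 1.85 with the RPKM as deposited, where that of all genes was 0.64; with a replicate left out it was 1.35 to 1.42. The exon 4 clone's 6 kinesins became 1 with no minimum, 2 with the minimum of 1 RPKM, 2 with the RPKM as deposited, 0 with each clone fitted alone, and 1 to 4 with a replicate left out. The exon 6 clone's 9 became 2 with no minimum, 2 with the minimum of 1 RPKM, and 0 to 8 with a replicate left out. Where an arm then held 1 sample, it was assumed to vary like the other groups. For the exon 4 clone the count rose to 8 with quantile normalization and to 7 with eBayes without trend. The interaction called 0 in every alternative.

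Among all genes, 271 were higher and 14 lower over both clones. With no minimum these were 171 and 6 (40885 genes tested), with the minimum of 1 RPKM 93 higher (7550 genes tested), with the RPKM as deposited 875 higher, with no clone covariate 6 lower, with the replicate block 27 lower, and with a replicate left out 174 to 265 higher and 4 to 16 lower. The log2 change of *Kif5b* lay between -0.046 and 0.22 with a replicate left out and was 0.97 with the RPKM as deposited. Added after the data were seen, taking exon 6 replicate 2 from library 3 alone gave 6 lower genes and scaling to *Kif5b* 9 lower, and from library 2 or 3 alone or scaled to *Kif5b* 9 kinesins were called over both clones. The cause was not tested, except that the minimums change how many genes are tested. Depth is unknown, so the number of reads behind rescue levels under 0.1 RPKM could not be given.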

Other observations

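The copies of 2 of the kinesins were followed too. Kifc5c-ps, a pseudogene related to *Kifc1*, was at 0.817 ± 0.178 in KO against 0.122 ± 0.107 RPKM in rescue replicates (SD, n = 4 each), with a log2 change of 1.09 (adjusted p = 0.00213 from limma). Kif22-ps was at 0.176 ± 0.0623 in KO against 0.0443 ± 0.0177 RPKM in rescue replicates (SD, n = 4 each) and was not called (log2 change 0.31, adjusted p = 0.425 from limma). Of the stretches of 31 bases of *Kifc1*, 5.32% occur in Kifc5c-ps and 57.2% in some other gene, and of those of *Kif22* 1.48% occur in some other gene on the same strand.

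The technical replicates of the exon 6 clone gave values of *Kif20a* of 2.71 and 3.02 RPKM in KO and 0.271 and 0.618 RPKM in rescue cells, and of *Kif11* of 1.45 and 1.07 RPKM in KO and 0.0517 and 0.147 RPKM in rescue cells. *Kif4* was at 1.17 and 0.705 RPKM in KO and 0.0563 and 0.0567 RPKM in rescue cells.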
